A study of Mus musculus with 12 samples.

Results

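Genes that mark blood vessel endothelium or steer vessel growth were followed across the 12 mouse rhabdoid tumors of the series. They were chosen by name, 10 of the 24060 gene rows in the tables, and comprise 7 endothelial markers (Pecam1, Cdh5, Vwf, Kdr, Flt1, Tek and Tie1) and 3 secreted ligands (Vegfa, Angpt1 and Angpt2). The tumors arose in P0-CreC;Smarcb1 flox/flox mice on an FVB/N background, in which the P0 promoter drives Cre recombinase in early neural crest cells and both copies of Smarcb1, a subunit of the SWI/SNF chromatin remodelling complex, are deleted there. By location they were labelled retro-orbital (4 tumors), cheek (3), meninges (3), vestibular nerve (1) and trigeminal nerve (1), all carry the same deletion, and no normal tissue was sequenced. No separation of tumor cells from host cells before sequencing is described, and host cells without Cre keep Smarcb1. Smarcb1 was at 1.70 to 6.31 RPKM (a read count divided by transcript length and by the tumor's mapped reads) across the tumors, and with no control tissue this level does not check the deletion. The study itself reported the deleted allele by PCR and loss of nuclear SMARCB1 staining in the tumor cells of this mouse model.

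Vessel growth is steered by ligands from the surrounding tissue acting on tyrosine kinase receptors of the endothelium. Vegfa, which hypoxia induces, signals through Kdr (VEGF receptor 2) to make endothelial cells divide and migrate, whereas Flt1 (VEGF receptor 1) binds Vegfa tightly and signals weakly, and is also made by macrophages. Angpt1, from mural and mesenchymal cells, activates the receptor Tek (Tie2) and stabilises vessels, Angpt2, made by endothelial cells themselves, competes with it during remodelling, and Tie1 is the co-receptor of Tek. Pecam1 and Cdh5 (VE-cadherin) hold endothelial cells together and Vwf is the clotting factor they store.

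Fragment totals, inferred here from the steps between low RPKM values, ran from 13206168 in cheek tumor 3 to 57128422 in retro-orbital tumor 3, and 12575 to 14528 genes per tumor reached 1 RPKM. The thinnest member value, Angpt1 in cheek tumor 3, rested on 36 inferred fragments and the thickest, Vegfa in retro-orbital tumor 1, on 24675. These totals are estimates, and they vary more widely between tumors than the read numbers that the study's methods describe. Retro-orbital tumors 1, 2 and 3 stood apart in several genes below, and cheek tumors 2 and 3 were the most alike pair. Cheek tumors 2 and 3 share the first part of their identifiers, as do cheek tumor 1 and meninges tumor 1, and retro-orbital tumor 3 and the trigeminal nerve tumor. Whether such tumors came from 1 animal is not stated. All p-values treat the tumors as independent. In bulk tissue, fewer endothelial cells and less RNA per endothelial cell cannot be told apart.

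Promoter windows of 5 of the 10 members were held by the RefSeq table used here (GRCm38.p6): the 4 receptors, whose levels are compared below, and Vegfa, which stood apart in 1 tumor. The 250 bases before each annotated start are printed 5′ to 3′ on the gene's strand. Capitals mark 4 motifs searched on both strands: CCGGAA and AGGAAG, forms of the site of ETS factors such as Erg and Fli1, AGATAA, the GATA site, and ACGTG, the core of the hypoxia response element. Marked motifs did not overlap.
Kdr: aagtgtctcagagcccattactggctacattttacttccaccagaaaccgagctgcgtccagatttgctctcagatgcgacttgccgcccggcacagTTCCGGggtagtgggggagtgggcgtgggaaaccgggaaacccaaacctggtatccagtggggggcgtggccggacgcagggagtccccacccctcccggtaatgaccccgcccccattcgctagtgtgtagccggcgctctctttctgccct
Flt1: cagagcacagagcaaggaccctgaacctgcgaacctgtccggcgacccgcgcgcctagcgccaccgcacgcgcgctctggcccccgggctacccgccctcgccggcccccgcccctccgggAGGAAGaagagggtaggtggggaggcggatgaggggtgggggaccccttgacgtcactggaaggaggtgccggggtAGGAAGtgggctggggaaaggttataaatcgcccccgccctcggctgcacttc
Tek: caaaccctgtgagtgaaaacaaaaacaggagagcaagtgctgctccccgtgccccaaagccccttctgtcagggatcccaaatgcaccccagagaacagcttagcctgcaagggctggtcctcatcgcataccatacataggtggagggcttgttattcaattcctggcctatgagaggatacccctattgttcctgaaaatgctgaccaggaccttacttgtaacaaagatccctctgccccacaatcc
Tie1: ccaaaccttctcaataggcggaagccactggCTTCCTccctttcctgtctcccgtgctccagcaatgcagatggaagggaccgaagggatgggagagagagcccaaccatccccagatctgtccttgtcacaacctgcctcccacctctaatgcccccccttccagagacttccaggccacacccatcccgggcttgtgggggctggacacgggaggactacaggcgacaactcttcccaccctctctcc
Vegfa: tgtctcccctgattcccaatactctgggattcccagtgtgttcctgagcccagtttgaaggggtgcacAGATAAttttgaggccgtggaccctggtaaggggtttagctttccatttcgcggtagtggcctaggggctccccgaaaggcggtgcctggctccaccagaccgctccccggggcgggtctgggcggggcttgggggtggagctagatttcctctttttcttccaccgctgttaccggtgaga
These windows are chr5:75978456-75978705 on the minus strand (Kdr), chr5:147726012-147726261 on the minus strand (Flt1), chr4:94739039-94739288 on the plus strand (Tek), chr4:118489850-118490099 on the minus strand (Tie1) and chr17:46032378-46032627 on the minus strand (Vegfa). Kdr had 1 CCGGAA starting 153 bases before the start, read on the opposite strand. Flt1 had 2 AGGAAG, at 129 and 53 bases before the start, and Tie1 had 1 on the opposite strand at 219 bases. Vegfa had 1 AGATAA at 182 bases, and the Tek window held none of the 4 motifs. The table holds another Vegfa window, not printed, at an annotated start inside the gene (chr17:46025164-46025413, minus strand), which had 1 ACGTG on the opposite strand at 211 bases. Of 32851 promoter windows of this length, 12.0% held CCGGAA, 29.5% AGGAAG, 9.99% AGATAA and 16.6% ACGTG on either strand. A match is a run of letters and not a measured site, and bases farther from each start were not searched.

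The 3 adhesion and haemostasis genes were measured above 1 RPKM in all 12 tumors. Pecam1 (chromosome 11, 106654217 to 106750628, GRCm38) was at 12.8, 7.41, 29.6 and 25.8 RPKM in retro-orbital tumors 1 to 4. It was at 19.9, 14.4 and 14.8 RPKM in cheek tumors 1 to 3 and at 10.3, 20.6 and 13.7 RPKM in meninges tumors 1 to 3. Of the nerve tumors, the vestibular one had the lowest value of all, 6.65 RPKM, and the trigeminal one had 9.40. The locations overlapped, and retro-orbital tumors 3 and 4 were the highest of the 12. Cdh5 (chromosome 8, 104101625 to 104144511) read 9.11, 3.73, 19.9 and 16.7 RPKM in the retro-orbital tumors, 8.12, 16.2 and 16.8 in the cheek tumors and 7.71, 15 and 9.65 in the meninges tumors. It was lowest in the vestibular nerve tumor, at 2.67 RPKM, and highest in retro-orbital tumor 3. The trigeminal nerve tumor, at 16.0 RPKM, lay below that highest value and well above the vestibular one. Vwf (chromosome 6, 125546774 to 125686679) varied most of the 7 markers, 12.8-fold between its lowest and highest tumor. It read 1.29, 1.79, 16.5 and 5.81 RPKM in the retro-orbital tumors, 2.18, 2.77 and 2.93 in the cheek tumors, 12.4, 8.08 and 8.76 in the meninges tumors, 1.59 in the vestibular nerve tumor and 3.66 in the trigeminal nerve tumor. All 3 meninges tumors lay above all 3 cheek tumors and both nerve tumors, while the retro-orbital tumors spanned both ranges.

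Among the VEGF receptors, Kdr (chromosome 5, 75932827 to 75978458) read 6.35, 2.25, 4.42 and 7.03 RPKM in retro-orbital tumors 1 to 4. The cheek tumors had 7, 5.3 and 6.22 RPKM and the meninges tumors 5.99, 11.2 and 7.14. The vestibular and trigeminal nerve tumors had 3.01 and 2.24 RPKM. Meninges tumor 2 was 4.98-fold above the trigeminal nerve tumor, its lowest value. Flt1 (chromosome 5, 147561604 to 147726011) was at 18.0, 2.45, 7.17 and 6.44 RPKM in the retro-orbital tumors, 6.99, 4.01 and 4.99 in the cheek tumors, 8.61, 8.11 and 7.29 in the meninges tumors, and 2.65 and 3.50 in the vestibular and trigeminal nerve tumors. Retro-orbital tumor 1 was 2.08-fold above the next tumor, and no other marker was highest there. Per transcript length the 2 receptors were at similar levels, with Flt1 above Kdr in 6 tumors and below it in 6. The mean difference of Kdr minus Flt1 on the log2(RPKM + 1) scale was -0.14 ± 0.50 (SD, n = 12; exact sign-flip permutation test, two-sided, p = 0.372).

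The angiopoietin receptors had the lowest mean levels of the members, 2.40 RPKM for Tek and 3.08 for Tie1, although the median of Angpt1 (2.75 RPKM) was below that of Tie1 (2.99). Tek (chromosome 4, 94739289 to 94874976) read 1.46, 1.09, 2.37 and 2.38 RPKM in the retro-orbital tumors and 2.13, 2.20 and 2.29 in the cheek tumors. The meninges tumors had 3.04, 5.54 and 3.29 RPKM, and the vestibular and trigeminal nerve tumors 1.83 and 1.18. Each meninges tumor was above each of the other 9 tumors. Tie1 (chromosome 4, 118471191 to 118490061) read 2.43, 1.22, 5.14 and 4.03 RPKM in the retro-orbital tumors, 2.50, 3.04 and 3.20 in the cheek tumors, 2.94, 6.01 and 3.27 in the meninges tumors, and 1.5 and 1.72 in the vestibular and trigeminal nerve tumors. Here the locations overlapped. Tie1 was above Tek in 9 of 12 tumors. The mean difference of Tek minus Tie1 was -0.25 ± 0.29 on the log2(RPKM + 1) scale (SD, n = 12; exact two-sided sign-flip permutation test, p = 0.0112), and with any 1 tumor left out the exact p stayed between 0.00391 and 0.0225. Tek was above Tie1 in meninges tumors 1 and 3 and the vestibular nerve tumor, by at most 0.18 on that scale. The test covers only the spread between tumors. An error in the transcript lengths behind RPKM, which are not given, would shift all tumors alike and is not covered.

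Vegfa was the most abundant member in 9 of 12 tumors, and Pecam1 in retro-orbital tumors 3 and 4 and meninges tumor 2. Vegfa lies on chromosome 17 (46016993 to 46032369) and read 218, 24.3, 27.5 and 19.2 RPKM in retro-orbital tumors 1 to 4. The cheek tumors had 28.4, 20.1 and 17.7 RPKM, the meninges tumors 24.5, 14.2 and 23.0, and the vestibular and trigeminal nerve tumors 22.4 and 19.1. The other 11 tumors thus lay within 14.2 to 28.4 RPKM, and retro-orbital tumor 1 was 9.76-fold above their median. Angpt1 (chromosome 15, 42424723 to 42676977) had the widest relative range, 24.3-fold. It read 2.62, 2.85, 9.25 and 1.34 RPKM in the retro-orbital tumors, 8.30, 1.22 and 0.632 in the cheek tumors, 15.3, 1.5 and 4.06 in the meninges tumors, 5.94 in the vestibular nerve tumor and 2.66 in the trigeminal nerve tumor. High and low tumors occurred within each location of 3 or more. Angpt2 (chromosome 8, 18690263 to 18741562) lies within the span of Mcph1 on the other strand, and whether counting used strand is not stated. It read 3.22, 4.19, 10.9 and 4.93 RPKM in the retro-orbital tumors, 4.79, 3.25 and 4.51 in the cheek tumors, 4.20, 13.8 and 5.16 in the meninges tumors, and 4.55 and 4.51 in the vestibular and trigeminal nerve tumors. Only meninges tumor 2 and retro-orbital tumor 3 exceeded 5.16 RPKM.

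**Figure D1:**
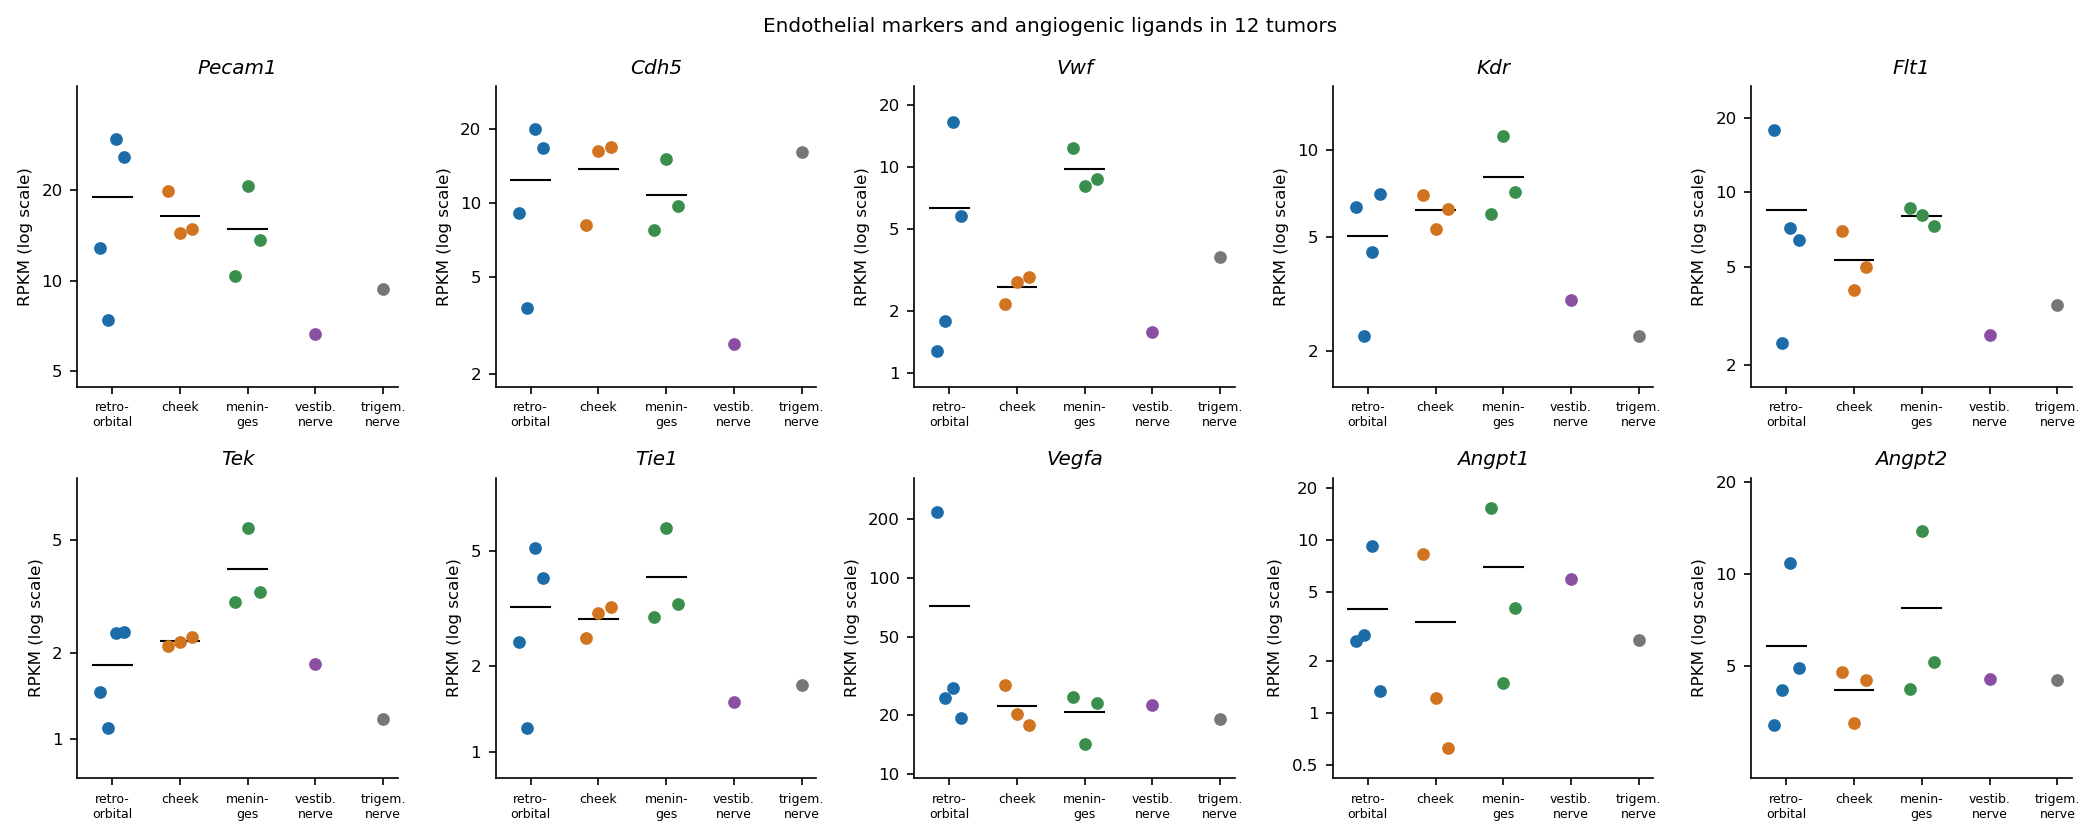
RPKM of the 10 genes (vertical axes, log scales that differ between panels) in each of the 12 tumors, with 1 point per tumor coloured by location along the horizontal axis and a horizontal line at the arithmetic mean of locations with 3 or 4 tumors. Vegfa reaches 218 RPKM in retro-orbital tumor 1 against at most 28.4 elsewhere, and the 3 meninges points of Tek (3.04 to 5.54 RPKM) lie above all others.

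The balance of the 2 angiopoietins differed from tumor to tumor. Angpt2 was above Angpt1 in 9 of 12 tumors, and the ratio of Angpt1 to Angpt2 ran from 0.108 in meninges tumor 2 to 3.65 in meninges tumor 1, so both extremes came from the same location. The mean difference of Angpt1 minus Angpt2 was -0.47 ± 1.11 on the log2(RPKM + 1) scale (SD, n = 12; exact two-sided sign-flip permutation test, p = 0.170). With any 1 tumor left out it ran from -0.67 to -0.28 (exact sign-flip permutation test, p from 0.0352 to 0.339). The lowest p came without meninges tumor 1, the tumor with the highest ratio of Angpt1 to Angpt2.

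The 10 tumors of the retro-orbital, cheek and meninges locations allowed the question whether the genes differed with tumor location. By limma's F test on log2(RPKM + 1), with Benjamini-Hochberg adjustment over 14745 genes, 0 of the 10 members had an adjusted p under 0.05, as did 0.0407% of all genes (6 genes). At an unadjusted p under 0.05 the members again numbered 0, beside 14.3% of all genes. Tek came nearest. It averaged 3.95 ± 1.38 RPKM (SD, n = 3) at the meninges, 1.83 ± 0.65 (SD, n = 4) at the retro-orbital and 2.20 ± 0.08 (SD, n = 3) at the cheek location. Its F test gave a limma adjusted p of 0.351, just outside the unadjusted level, and the log2 difference of meninges minus retro-orbital tumors was 0.81 with a standard error of 0.29. Vwf followed, at 9.74 ± 2.32 RPKM in the meninges tumors (SD, n = 3) against 2.63 ± 0.40 in the cheek tumors (SD, n = 3). Its log2 difference of meninges minus cheek tumors was 1.55 with a standard error of 0.66, and limma's adjusted F-test p was 0.412. Scaling the tumors by median ratios moved the median of all genes by 0.16 between meninges and retro-orbital tumors and by 0.20 between meninges and cheek tumors. Relative to that shift the Tek difference was 0.69 and the Vwf difference 1.38, in the same direction. When tumors sharing an identifier were treated as a block, limma's adjusted p of Vwf became 0.00459, and 2802 genes passed, with an estimated correlation of 0.93 within the 2 such pairs of these 10 tumors. For the other 8 members limma's adjusted p ran from 0.509 (Kdr) to 0.940 (Pecam1). Pecam1 averaged 18.9 ± 10.5 RPKM (SD, n = 4) at the retro-orbital, 16.4 ± 3.07 (SD, n = 3) at the cheek and 14.9 ± 5.22 (SD, n = 3) at the meninges location. The only vestibular nerve tumor was the lowest of the 12 for Pecam1 and Cdh5 and among the lowest 3 for 6 of the 7 markers, with no replicate of that location.

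The 7 endothelial markers were compared in pairs across tumors. All 21 pairs had a Pearson r above 0 over the 12 tumors on the log2(RPKM + 1) scale, from 0.27 (Vwf with Flt1) to 0.86 (Pecam1 with Tie1), with a median of 0.52, and Spearman's rho ran from 0.09 to 0.87. These points share libraries and depth, and the values are a description. By the mean log2 level of the 7 genes, meninges tumor 2 (3.42) and retro-orbital tumor 3 (3.33) were highest and retro-orbital tumor 2 (1.79) and the vestibular nerve tumor (1.84) lowest. In meninges tumor 2 all 7 markers were among the 6 highest of their 12 values, and in retro-orbital tumor 2 all 7 were among the 3 lowest. Retro-orbital tumor 3 also had the highest inferred fragment total, whereas retro-orbital tumor 2 (29397730 fragments) had a higher one than meninges tumor 2 (26299840). Tie1 was the most central marker, with a median r of 0.75 to the other 6, and Flt1 the least, with 0.43.

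Regression of every gene on Pecam1 by limma called 0 of 15042 genes at an adjusted p under 0.05 (0% of genes with a positive slope), so no member was called. At an unadjusted p under 0.05 a positive slope was found for 3 of the other 6 markers, beside 3.13% of all genes. These were Tie1 (r = 0.86, permutation p = 0.0006; rho = 0.87, permutation p = 0.00052), Cdh5 (r = 0.74, permutation p = 0.0057; rho = 0.74, permutation p = 0.00826) and Kdr (r = 0.64, permutation p = 0.025; rho = 0.58, permutation p = 0.0531), each with a limma adjusted p of 0.925. Without the 2 tumors farthest from the Pecam1 median, retro-orbital tumor 3 and the vestibular nerve tumor, r was 0.79 for Tie1, 0.56 for Cdh5 and 0.79 for Kdr. With location removed from the 10 tumors of the 3 larger groups, r was 0.92 for Tie1, 0.81 for Cdh5 and 0.71 for Kdr. A list of further endothelial genes was read in the same way. Of 22 such genes 20 passed the low-value filter of 1 RPKM in at least 3 tumors, and 12 of the 20 had an unadjusted p under 0.05 with a positive slope, at a median r to Pecam1 of 0.74 against -0.00255 over all genes. The count was 12 of 20 again without the 2 farthest tumors, beside 2.36% of all genes. Cd34, a sialomucin of capillary endothelium, was the most abundant (17.8 ± 10.9 RPKM, SD, n = 12; r = 0.70 to Pecam1). Egfl7, a secreted endothelial matrix factor (16.0 ± 5.58 RPKM, SD, n = 12), had r = 0.74, Emcn (endomucin, 13.4 ± 5.76 RPKM, SD, n = 12) had r = 0.83 and Fli1, an ETS factor also made by blood cells (13.2 ± 5.98 RPKM, SD, n = 12), had r = 0.39.

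**Figure D2:**
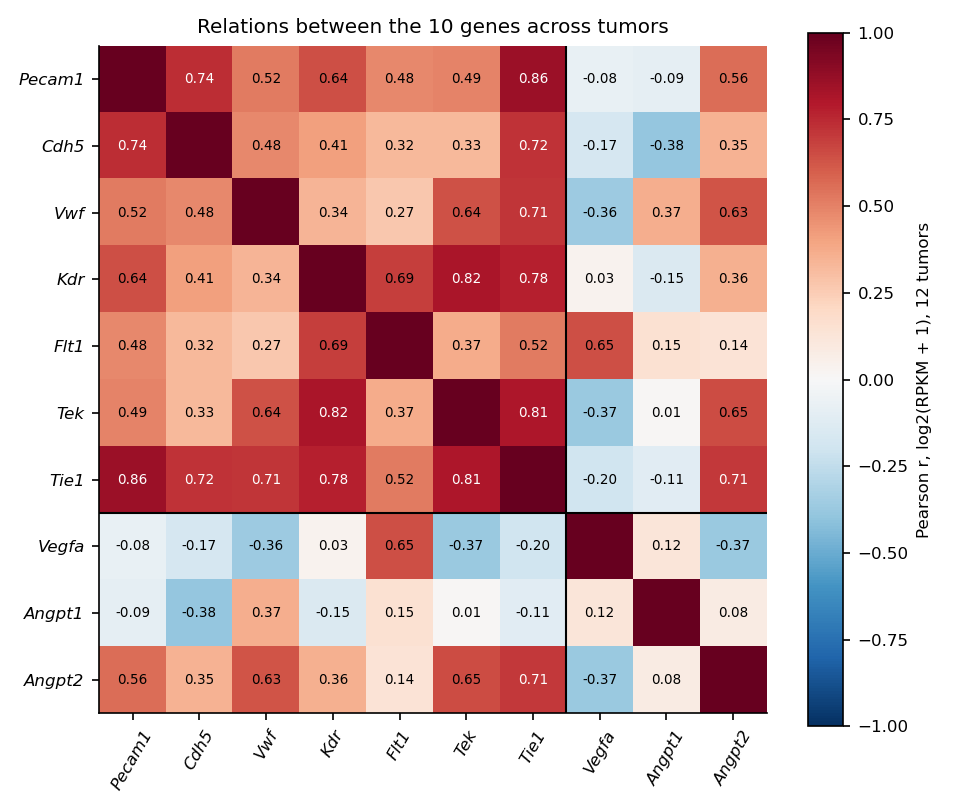
Pearson r of log2(RPKM + 1) over the 12 tumors for each pair of the 10 genes (rows and columns, colour from -1 in blue to 1 in red), with black lines between the 7 markers and the 3 ligands. All marker pairs are above 0 (0.27 to 0.86), whereas Vegfa has r between -0.37 and 0.65 to the markers and Angpt2 between 0.14 and 0.71.

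The genes whose pattern was most like that of the 7 markers, by median Pearson r over the 12 tumors among 15033 other genes passing the filter, were Nos3 (endothelial nitric oxide synthase, median r = 0.77), Arhgef15 (0.75), Podxl (podocalyxin, 0.75), Clec14a (0.74) and the microRNA row Mir5623 (0.74). All but Mir5623 stood on the endothelial or pathway lists. Nos3 was at 0.619 RPKM in retro-orbital tumor 2 and at 3.49 in meninges tumor 2. It shares its locus with the antisense gene Atg9b, and Mir5623 lies within Atrnl1 on the same strand, so their reads may be shared. Over all genes the median of this measure was 0.03, and over the 20 listed endothelial genes it was 0.65.

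Endothelial marker levels were then set against the ligand Vegfa over the 12 tumors. The regression on Vegfa called 0 of the 9 other members at an adjusted p under 0.05, and 0.00665% of genes with a positive slope (1 gene, Aph1b). At an unadjusted p under 0.05 only Flt1 of the 7 markers had a positive slope, beside 2.37% of all genes. Flt1 had r = 0.65 (permutation p = 0.0409; limma adjusted p = 0.9999) and rho = 0.34 (permutation p = 0.274). The relation rested on retro-orbital tumor 1, which had the highest Vegfa and the highest Flt1 of the 12. Without it r was 0.01 over 11 tumors, and without it and meninges tumor 2 it was 0.32. For the other 6 markers r lay between -0.37 (Tek) and 0.03 (Kdr), with permutation p-values from 0.212 to 0.919, and without the 2 tumors farthest from the Vegfa median between -0.35 (Cdh5) and 0.27 (Vwf). Kdr, the main signalling receptor for Vegfa, was at 6.35 RPKM in retro-orbital tumor 1, within the range of the other tumors, Pecam1 was at 12.8, and Vwf at 1.29 was the lowest of the 12. Other listed receptors and tip-cell genes in that tumor were not uniform: Flt4 (VEGF receptor 3) was at 4.82 RPKM and Esm1 (endocan) at 4.23, each the highest of the 12, while Dll4 and Apln were not. These 4 were picked after their values were seen. Of the 23 tested genes on the VEGF, angiopoietin and Notch pathway list, 1 (Esm1) had an unadjusted p under 0.05 with a positive slope, and of the 20 other endothelial genes 0 did. The 4 most abundant pathway genes were Hif1a, the oxygen-sensing transcription factor subunit (63.8 ± 10.9 RPKM, SD, n = 12; r = -0.26 to Vegfa), S1pr1, a sphingosine phosphate receptor (63.4 ± 43.9 RPKM; r = 0.17), Thbs1, the angiogenesis inhibitor thrombospondin 1 (47.3 ± 23.0 RPKM; r = 0.14), and Nrp2, a VEGF co-receptor (31.2 ± 25.3 RPKM; r = -0.20).

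Genes that hypoxia is known to induce were read against Vegfa too. Of the 14 listed genes, 8 had an unadjusted p under 0.05 with a positive slope against Vegfa, beside 2.37% of all genes, and their median r was 0.59 against -0.06 over all genes. None had an adjusted p under 0.05. The 8 were Slc2a1 (a glucose transporter), Adm (adrenomedullin), Bnip3, Pdk1, Hk2, Ero1l, P4ha1 and Egln1. Without retro-orbital tumor 1 the count was 5 of 14 beside 2.49% of all genes, at a median r of 0.54, and the 5 were Adm, Bnip3, Pdk1, Ldha and Egln3. With location as a term it was 4 of 14 beside 4.53%. Pdk1, the kinase that keeps pyruvate out of mitochondria, had r = 0.63 over 12 tumors (permutation p = 0.0826; rho = 0.79, permutation p = 0.00321) and r = 0.88 over the 11 without retro-orbital tumor 1. Adm had r = 0.61 (permutation p = 0.00169; rho = 0.81, permutation p = 0.0023) and r = 0.71 without that tumor. P4ha1, a collagen prolyl hydroxylase, had r = 0.73 (permutation p = 0.0281), which became 0.13 without it. Permutation p-values were computed for all 14 genes and not adjusted. Those printed, of Pdk1, Adm and P4ha1, were picked after the values were seen. Slc2a1 was at 146 RPKM in retro-orbital tumor 1 but also at 142 in meninges tumor 1, where Vegfa was 24.5. Ldha, the most abundant of the list at 245 ± 68.7 RPKM (SD, n = 12), had r = 0.28 and Pgk1 (50.4 ± 29.1 RPKM) r = 0.47. The remaining genes outside the 8 were Ankrd37 (r = 0.41 over 12 tumors), Egln3 (0.04), Car9 (-0.01) and Ndrg1 (-0.11).

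**Figure D3:**
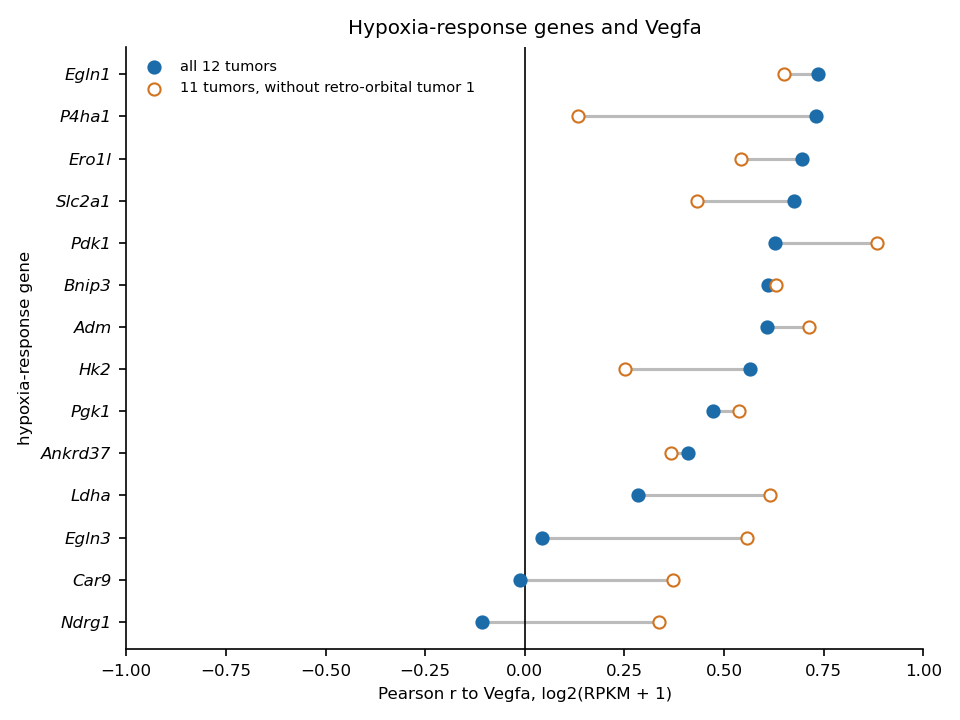
Pearson r to Vegfa on the log2(RPKM + 1) scale (horizontal axis) for the 14 hypoxia-response genes (vertical axis), over all 12 tumors (filled) and over the 11 tumors without retro-orbital tumor 1 (open), joined by a grey line. The median is 0.59 over 12 tumors and 0.54 over 11, and P4ha1 moves from 0.73 to 0.13.

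Angpt2, which endothelial cells make themselves, was set against the same markers. The regression on Angpt2 called 13 genes with a positive slope (0.0864% of genes) and 0 of the 9 other members. At an unadjusted p under 0.05 with a positive slope stood 4 of the 7 markers, beside 5.65% of all genes. They were Tie1 (r = 0.71, permutation p = 0.00937; rho = 0.66, permutation p = 0.022), Tek (r = 0.65, permutation p = 0.0285; rho = 0.62, permutation p = 0.0339), Vwf (r = 0.63, permutation p = 0.0222; rho = 0.61, permutation p = 0.0399) and Pecam1 (r = 0.56, permutation p = 0.0581; rho = 0.57, permutation p = 0.057), with limma adjusted p-values from 0.564 to 0.667. The relations did not hold without the 2 tumors farthest from the Angpt2 median, meninges tumor 2 and retro-orbital tumor 3, which were also the 2 highest by the 7 markers. Over the other 10 tumors r was 0.11 for Tie1, 0.33 for Tek, 0.42 for Vwf and 0.17 for Pecam1, and 0 of the 7 markers had an unadjusted p under 0.05, beside 3.91% of all genes with a positive slope. Without retro-orbital tumor 3 alone 2 of the 7 did, Tek and Tie1, beside 4.18%, and without meninges tumor 2 alone 1 did, Vwf, beside 8.55%. With location as a term 2 of the 7 did, Pecam1 and Tie1, beside 3.68%. Flt1 (r = 0.14), Cdh5 (r = 0.35) and Kdr (r = 0.36) had permutation p-values of 0.671, 0.272 and 0.242. Of the 20 listed endothelial genes, 9 had a positive slope at an unadjusted p under 0.05. The count was 3 of 20 without retro-orbital tumor 3, 3 of 19 without meninges tumor 2 and 0 of 19 without both, against the same shares of all genes. Of the 23 pathway genes 5 did, Vegfc, Nos3, Acvrl1, Robo4 and Epas1. Of the 14 hypoxia-response genes 0 had a positive and 5 a negative slope at that level (Pgk1, Ldha, Ankrd37, Pdk1 and P4ha1), beside 1.7% of all genes with a negative slope. Without meninges tumor 2 the list had 1 negative and 3 positive slopes at that level, and without both tumors 0 of either. Ldha had r = -0.71 (permutation p = 0.00868; rho = -0.76, permutation p = 0.00567). The genes most like Angpt2 were Tmem132c (r = 0.95), Prmt8 (0.93) and Galnt3 (0.92), which were at 12.1, 20.8 and 24.7 RPKM in meninges tumor 2 and at 9.14, 4.96 and 8.11 in retro-orbital tumor 3. In each other tumor these 3 were at or below 4.82 RPKM.

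**Figure D4:**
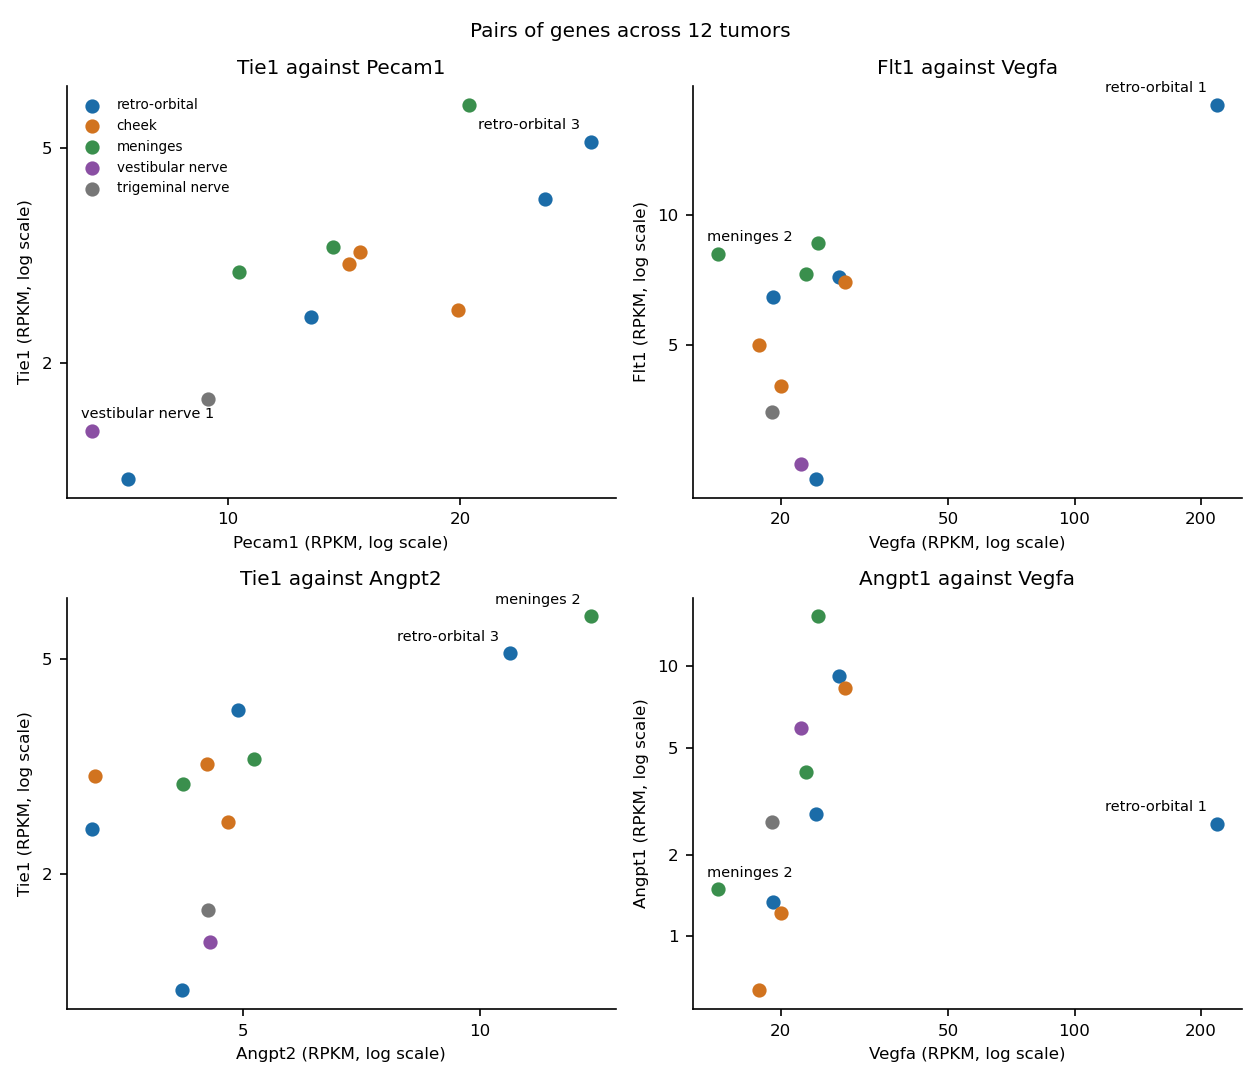
Selected pairs of genes in the 12 tumors (both axes RPKM on log scales), 1 point per tumor coloured by location, with the tumors farthest from the median of the gene on the horizontal axis named. Tie1 and Pecam1 have r = 0.86, with cheek tumor 1 (Pecam1 19.9, Tie1 2.50 RPKM) among the points off the trend, while Flt1 against Vegfa (r = 0.65) depends on retro-orbital tumor 1 and Tie1 against Angpt2 (r = 0.71) on meninges tumor 2 and retro-orbital tumor 3.

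Angpt1 was read against the markers in the same way. The regression on Angpt1 called 0% of genes with a positive slope, and at an unadjusted p under 0.05 it gave 0 of the 7 markers beside 11.5% of all genes. The r values ran from -0.38 (Cdh5, permutation p = 0.216) to 0.37 (Vwf, permutation p = 0.236). Tek, its receptor, had r = 0.01 (permutation p = 0.970; rho = 0.02). Without the 2 tumors farthest from the Angpt1 median, meninges tumor 1 and retro-orbital tumor 3, Cdh5 had r = -0.68 (permutation p = 0.0305). The genes most like Angpt1 were Abhd11os (r = 0.93), Smad9, a BMP signal transducer (0.91), and Ggnbp1 (0.90), of which Abhd11os overlaps Abhd11 on the other strand. Among the ligands, Angpt1 and Vegfa had r = 0.12 over 12 tumors (permutation p = 0.739) but rho = 0.65 (permutation p = 0.0262). Without retro-orbital tumor 1, where Angpt1 was 2.62 RPKM, r was 0.78 over 11 tumors, and without meninges tumor 2 as well it was 0.83 (permutation p = 0.0039). Limma's adjusted p of this pair was 0.998 without retro-orbital tumor 1. Vegfa and Angpt2 had r = -0.37 (permutation p = 0.201), and Angpt1 and Angpt2 had r = 0.08 (permutation p = 0.802). In all, 24 relations of ligands and 21 of markers were computed, and none of those fitted across all genes had an adjusted p under 0.05.

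The listed endothelial genes Cldn5 and Plvap, no members, were picked after their values were seen because they were high in opposite locations. Cldn5 (claudin 5) seals the tight junctions of brain capillaries, and Plvap lines the openings of leaky, fenestrated capillaries. Cldn5 was at 30.4, 21.8 and 23.2 RPKM in meninges tumors 1 to 3. It was at 4.04, 1.75, 14.3 and 6.15 RPKM in the retro-orbital tumors, 6.65, 0.844 and 1.76 in the cheek tumors, 4.42 in the vestibular nerve tumor and 11.8 in the trigeminal nerve tumor. The meninges tumors did not overlap any other. Plvap was at 0.937, 9.22 and 2.59 RPKM in the meninges tumors, 11.8, 5.72, 20.9 and 14.2 in the retro-orbital tumors, 14.4, 14.5 and 13 in the cheek tumors, and 1.75 and 3.40 in the vestibular and trigeminal nerve tumors. All 3 meninges tumors lay below all 3 cheek tumors. The ratio of Cldn5 to Plvap was 2.37 to 32.4 in the meninges and nerve tumors and at most 0.685 in the others. Neither passed limma's F test between locations (limma adjusted p = 0.194 for Cldn5 and 0.289 for Plvap), and both were under the unadjusted level, which 14.3% of all genes reached. The log2 difference of meninges minus cheek tumors was 2.93 with a standard error of 0.65 for Cldn5 and -1.85 with a standard error of 0.58 for Plvap. Genes of neural tissue, a list also added after the values were seen, also differed in level between tumors. The 11 genes, among them Gfap of astrocytes, summed to 161 to 474 RPKM in the meninges tumors, 23.1 to 307 in the retro-orbital tumors, 35.8 to 38.1 in the cheek tumors, 94.5 in the vestibular nerve tumor and 179 in the trigeminal nerve tumor. The part of the neural tissue in the Cldn5 and Plvap values was not tested. Of the 20 endothelial genes tested between locations, 3 had an unadjusted F-test p under 0.05 (Cldn5, Plvap and Sox18), as did 2 of 23 pathway genes (Pgf and Nrp2).

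**Figure D5:**
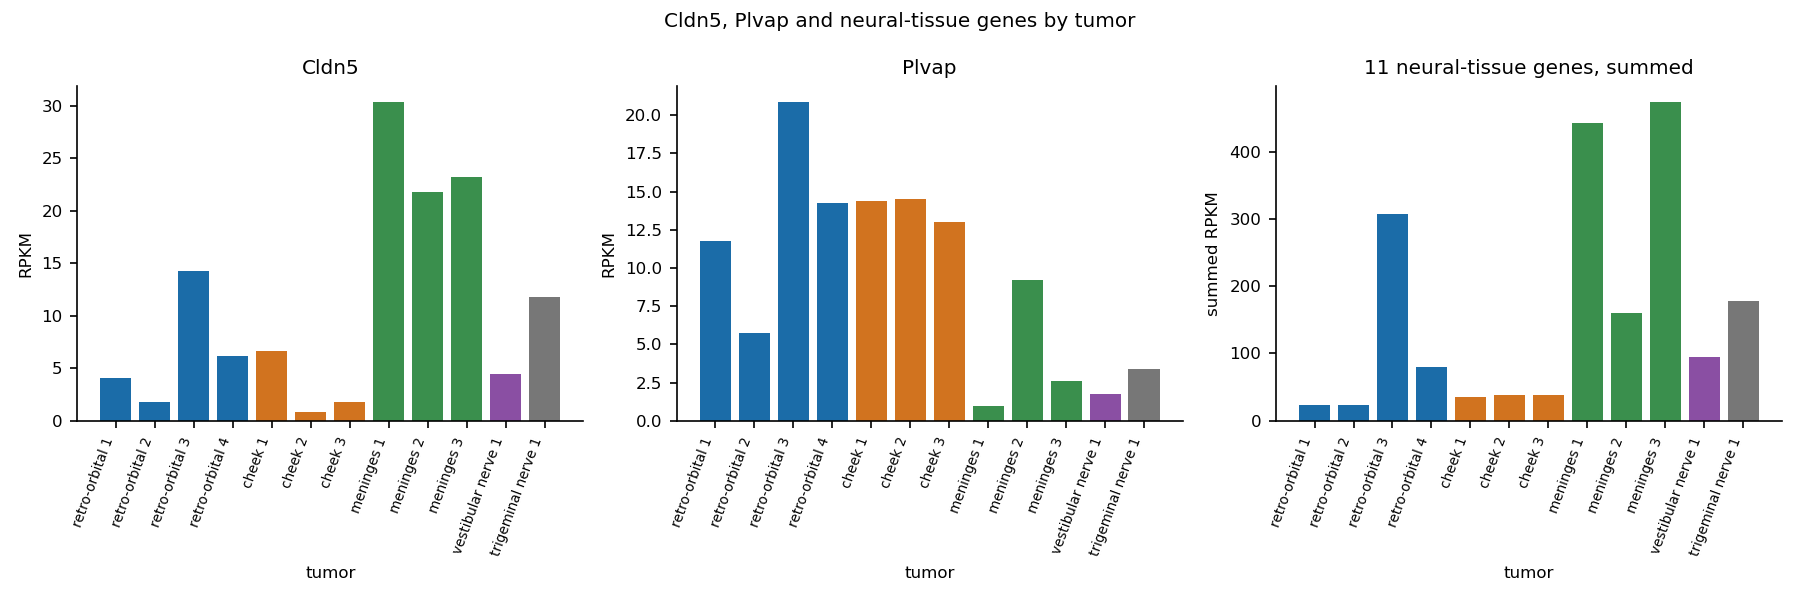
Bars of Cldn5 (left), Plvap (middle) and the sum of 11 neural-tissue genes (right), in RPKM on axes from 0, for each of the 12 tumors coloured by location. Cldn5 is 21.8 to 30.4 RPKM in the meninges tumors against at most 14.3 elsewhere, Plvap is lower there than in every cheek tumor, and the neural sum is highest in meninges tumors 3 and 1.

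Markers of cell types that share some of these genes were read beside them. The 10 mural cell genes, of pericytes and smooth muscle that wrap vessels, summed to 40.5 RPKM in the vestibular nerve tumor and to 482 in retro-orbital tumor 1. Their most abundant members were Mcam (54.5 RPKM on average, 349.5 in retro-orbital tumor 1), Pdgfrb (36.9 on average, 118 in retro-orbital tumor 2), Rgs5 (34.9 on average, 256 in retro-orbital tumor 3) and Acta2 (18.9 on average, 56.2 in retro-orbital tumor 1). Each peaked in a retro-orbital tumor, though not all in the same one, and Mcam made up most of the 482 RPKM. The study reported staining for SMA, the protein of Acta2, in foci of tumor cells of this mouse model. The part of tumor cells in these levels was not tested. Between locations 0 of the 10 mural genes had an unadjusted F-test p under 0.05, beside 14.3% of all genes. With Pecam1, 4 of the 10 had a positive slope at an unadjusted p under 0.05, Rgs5, Kcnj8, Abcc9 and Myh11, beside 3.13% of all genes. The 8 leukocyte genes, whose cells can express Pecam1 and Flt1, summed to 154 to 804 RPKM and were highest in retro-orbital tumor 2, where all 7 endothelial markers were among their 3 lowest values. Of these 8, 1 (Cd3e) had a positive slope on Pecam1 at an unadjusted p under 0.05, beside the same 3.13%, and 0 of 8 without retro-orbital tumor 3. Tyrobp (102 RPKM on average), Cd68 (89.8), Csf1r (69.6) and Laptm5 (35.4) were the most abundant. Platelets also carry Vwf. Of 6 platelet genes 4 passed the low-value filter, Pf4, Ppbp, Itga2b and Gp1bb. Gp9 and Gp6, which did not, were at most 0.28 and 0.123 RPKM. Itga2b was at 11.7 RPKM in retro-orbital tumor 2 and Gp1bb at 3.31 in retro-orbital tumor 1. The 6 genes summed to 6.65 to 7.86 RPKM in the meninges tumors, where Vwf was 8.08 to 12.4. Their sum was 12.0 to 65.6 in the retro-orbital and 19.8 to 48.0 in the cheek tumors. It was highest in retro-orbital tumor 2, which also had the highest leukocyte sum. Whether this sum follows platelets was not tested, nor was the part of platelets in the Vwf level. Of 5 lymphatic endothelial genes 3 passed the low-value filter. Prox1, the defining transcription factor, was at most 0.387 RPKM. Ccl21a was listed at 0 in every tumor, which is not read as absence because only uniquely mapped reads were counted. Pdpn (podoplanin), which many other cells also make, averaged 36.7 RPKM and ran from 3.31 in retro-orbital tumor 1 to 114 in meninges tumor 2. Its r was 0.62 to Pecam1 and 0.63 to Angpt2, and it was the 1 of the 3 with a positive slope on each at an unadjusted p under 0.05, beside 3.13% and 5.65% of all genes (limma adjusted p = 0.925 and 0.558). To Vegfa its r was -0.68 (limma adjusted p = 0.964), and -0.35 without retro-orbital tumor 1. Lyve1 reached 190.5 RPKM in retro-orbital tumor 2, and Reln ran from 0.246 to 3.97 RPKM. Of the red blood cell genes the globins could not be read, since 5 of the 6 globin rows were listed at 0 in all tumors and Hbb-b1 reached 0.12 RPKM in 1. Alas2, the first enzyme of haem synthesis in red cell precursors, was measured in every tumor, at 5.16 ± 2.37 RPKM (SD, n = 12) with its highest value, 11.5, in retro-orbital tumor 1, and Slc4a1 was at most 0.56 RPKM, also there. Their part in the Vegfa level of that tumor was not tested.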

How the data were processed

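RNA of 12 tumors was sequenced after ribosomal depletion, in a single pool. STAR was the aligner and mm10 the build. The authors counted the fragments of uniquely mapped reads per RefSeq gene by HTSeq, and their deposited values are RPKM, 1 per gene and tumor. Demultiplexing used bcl2fastq 2.17 per the submitters' processing notes. The transcript lengths and mapped reads behind RPKM are not given in the sources used here. RPKM are not counts, so limma 3.58.1 (R 4.3.3; trended, robust) was fitted to log2(RPKM + 1) of genes that reached 1 RPKM in 3 or more fitted tumors, with Benjamini-Hochberg adjustment at 0.05. This scale understates changes of low genes. Location was tested over 10 tumors, and regressions on Vegfa, Angpt2, Angpt1 and Pecam1 ran over 12. Correlations used two-sided permutation tests (100000 resamples) and gene pairs exact sign-flip permutation tests. The tests of gene pairs do not cover an error in transcript length, which all tumors would share. Fragment totals were inferred from steps between low RPKM values (checked by doubling each total, after which under 1% of counts were odd), and fragments per gene from the smallest length making its values whole. Intervals from such counts were not used. The scripts were tested on simulated data. Positions are from GENCODE M21. The 27 date-like gene rows entered the fits unnamed. Named genes are the members, up to 4 per list by mean RPKM, and up to 5 most like each target by Pearson r. Others were picked after their values were seen, as stated. The members and lists were chosen with earlier results of these data known. Labels do not say whether tumors came from separate animals.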

Additional observations from a re-analysis of the deposited data

Results flagged for a closer look

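The retro-orbital group, the only location with 4 tumors, was screened for single tumors far from the other 3, by dividing the gap to the nearest tumor by the whole range of the 4 (Dixon's criterion at the 95% level). Of 44 genes, the members and the most abundant of each list, 9 met the criterion. It was applied to RPKM without logs, and its chance rate of about 1 in 20 holds for normally spread values. The 44 genes share the same 4 tumors, and a single high tumor raises the mean by which listed genes were chosen. The count of 9 is a description and was not compared with chance. Among the 10 members 1 did so, Vegfa in retro-orbital tumor 1, at 218 RPKM against 27.5 in the nearest tumor. In the same tumor Gp1bb, a platelet glycoprotein subunit, was at 3.31 RPKM and Slc4a1, the red cell anion exchanger, at 0.56. Retro-orbital tumor 2 stood apart in Lyve1 (191 RPKM against 13.9), a receptor of lymphatic endothelium and some macrophages, with Prox1 at 0.0411 RPKM and the highest leukocyte sum of the 12 tumors, and also in Pdgfrb (118 RPKM) and Itga2b (11.7 RPKM). The cell source of Lyve1 in this tumor was not tested. Retro-orbital tumor 3 stood apart in the pericyte gene Rgs5 (256 RPKM against 22.1) and in the astrocyte genes Gfap (128 RPKM) and Aqp4 (121 RPKM).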

How the results depend on the processing

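No member of the 10 had an adjusted p under 0.05 in the main fits, and of 888 recomputed values for single members 887 stayed on their side of the threshold, the exception being Vwf between locations with shared identifiers as a block (limma adjusted p = 0.00459). This count does not measure stability. The main adjusted p-values lay far above 0.05 (limma adjusted F-test p of Tek 0.351), and some pairs of members were counted in both directions. The sign of r turned in 50 of the 888, over 18 relations, none of them past the threshold before or after. With the 10 tumors nearest the median, r to Vegfa turned from -0.08 to 0.16 for Pecam1, from -0.36 to 0.27 for Vwf, from -0.37 to 0.14 for Tek, from -0.20 to 0.048 for Tie1 and from -0.37 to 0.47 for Angpt2, r to Angpt2 from 0.35 to -0.062 for Cdh5 and from 0.14 to -0.26 for Flt1, and r to Angpt1 from 0.37 to -0.28 for Vwf, from 0.15 to -0.054 for Flt1, from 0.01 to -0.21 for Tek and from 0.08 to -0.11 for Angpt2. With location as a term, Flt1 with Angpt2 became -0.067, Tek with Angpt1 -0.30, Pecam1 with Angpt1 0.023 (from -0.09) and Angpt1 with Angpt2 -0.040. Angpt1 with Angpt2 was -0.13 and Tek with Angpt1 -0.36 with quantile normalization, -0.064 and -0.18 with median-ratio scaling, and Tek with Angpt1 -0.00105 with a pseudocount of 0.1. With the identifier block, Pecam1 with Vegfa became 0.047, or 0.080 with Vegfa fitted on Pecam1, Pecam1 with Angpt1 0.070, or 0.13 with Angpt1 fitted on Pecam1, and Tie1 with Angpt1 0.17. With 1 tumor left out, r to Vegfa ran from -0.45 to 0.043 for Vwf and from -0.34 to 0.21 for Kdr (0.03 over all 12), both turning without retro-orbital tumor 1, and Kdr also without the trigeminal nerve tumor. Kdr with Angpt2 ran from -0.043, without meninges tumor 2, to 0.50 (0.36 over all 12), Angpt1 with Angpt2 from -0.15 to 0.41, and r to Angpt1 from -0.35 to 0.036 for Pecam1, from -0.15 to 0.29 for Tek and from -0.32 to 0.036 for Tie1. Counts over all genes moved as well. Genes differing between locations numbered 6, against 10 with no filter on low values, 3 with a filter of 5 RPKM, 2802 with the identifier block, whose correlation of 0.93 rests on 2 pairs, and 0 with cheek tumors 2 and 3 averaged. With 1 tumor left out they ran from 0 to 198, the highest without cheek tumor 1. Genes related to Vegfa numbered 1, against 66 with no filter and 0 with a pseudocount of 0.1, quantile normalization, location as a term, the identifier block or the 10 tumors nearest the median, and 0 to 4 with 1 tumor left out. Genes related to Angpt2 numbered 13, against 3 with a pseudocount of 0.1, 32 with no filter, 0 with quantile normalization, location as a term or the 10 nearest tumors, 27 with the identifier block and 3 with cheek tumors 2 and 3 averaged, and 4 to 33 with 1 tumor left out. Genes related to Angpt1 numbered 0, against 1 with location as a term and 0 to 18 with 1 tumor left out. Genes related to Pecam1 numbered 0, against 3 with the identifier block and 0 with any 1 tumor left out. With 1 tumor left out the mean log2 difference ran from -0.67 to -0.28 for Angpt1 minus Angpt2, from -0.20 to -0.03 for Kdr minus Flt1 and from -0.29 to -0.20 for Tek minus Tie1. The cause of these shifts was not tested. Averaging cheek tumors 2 and 3 and the counts of listed genes without single tumors were chosen after seeing the data. No paired analysis was possible because the labels give no replicate numbers that pair tumors, and those used here follow accession order. Tumors that share the first part of an identifier were fitted as a block instead, as above. With 3 or 4 tumors per location, and 36 inferred fragments behind the thinnest value, small differences were not detectable.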

Other observations

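Vegfa was set beside its neighbours on chromosome 17 in retro-orbital tumor 1. Of the 23 other protein-coding genes within 500 kb in the RefSeq annotation (GRCm38.p6) that passed the low-value filter, 0 were higher in this tumor than in all 11 others, and their ratio to the median of the other tumors ran from 0.427 (Abcc10) to 1.78 (Dnph1) with a median of 0.845, while Vegfa was 9.76-fold above it. The gene most like Vegfa, Aph1b, a subunit of gamma-secretase, was at 33.5 RPKM in that tumor and at 1.27 to 4.86 in the others. Tgfa, a ligand of the EGF receptor, was at 72.4 RPKM there and at 0.217 to 4.68 elsewhere, and Mcam at 349.5. Without that tumor the r of Aph1b to Vegfa was 0.67 and that of Tgfa 0.40 over 11 tumors.

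Meninges tumor 2 had, beside the highest Angpt2, Kdr, Tek and Tie1, the highest Vegfc (24.8 RPKM against at most 4.15 elsewhere), a ligand of Flt4, and the highest Angpt4 (8.4 RPKM against at most 0.83), a further ligand of Tek. Vegfc had r = 0.76 to Angpt2 over 12 tumors (limma adjusted p = 0.281) and 0.40 without that tumor. Both were picked after their values were seen.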
